A study of Mus musculus with 18 samples.

Results

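The difference between the BAK1-KD-labelled and NC-labelled lines of BV2 cells that held its sign at control, 12 h and 24 h of oxyhemoglobin was measured by setting 9 KD-labelled RNA libraries against 9 NC-labelled libraries with time as a covariate. Members were the genes whose fitted difference, KD-labelled minus NC-labelled, had the same sign at each of the 3 times. Of 55487 genes in the count table, 15996 passed the filter on low counts and were tested, and 7227 of these, 45.2%, had the same sign at each time. Of those 7227, 1564 also passed the test across the lines at an adjusted p below 0.05. These 1564 genes are called held below. The sign and the test come from the same libraries and are not independent. Among all genes that passed the test, 98.2% had the same sign at each time, so the sign is no separate support. BV2 is an immortalized mouse microglial line made with a transforming retrovirus. The groups were the BAK1-KD line without treatment (0 h, control) and with oxyhemoglobin at a labelled dose of 10 mM for 12 h and 24 h, and the NC line at the same 3 times, with 3 libraries in each of the 6 groups. The labels say neither how the KD line was made nor whether either line is 1 clone, and nothing in them ties the 3 libraries of a group to separate cultures, so p-values measure the spread between these libraries. There was no untreated sample at 12 h or 24 h.

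Bak1 encodes a pore-forming protein of the Bcl2 family in the outer mitochondrial membrane, and oxyhemoglobin is the blood protein that reaches microglia after bleeding into the subarachnoid space. The study's title names microglial necroptosis and neuroinflammation as its subject. Microglia are the resident macrophages of the brain, and they are the brain's main source of C1q, the recognition protein of the classical complement pathway. A line difference that holds over all times is a separate quantity from a response to oxyhemoglobin, which is a change over time within a line.

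Library totals were 4361313 to 6008810 counts, with 20896 to 22503 genes detected per library. CT010467.2 took between 12.89 and 25.27% of the counts of a library, and the line difference of that gene was -0.26 ± 0.14 (log2, SE; edgeR's quasi-likelihood test, Benjamini-Hochberg adjusted p = 0.279). The target gene did not follow the label. Bak1 had 39 counts over the 9 KD-labelled libraries and 25 counts over the 9 NC-labelled libraries, with 0 to 12 counts in a library. The ratio of count rates was 1.62 (95% exact interval 0.953 to 2.79, counting error only; exact binomial p = 0.0615, two-sided). The mean log2 difference was 0.40, with p = 0.206 in an exact permutation test of the lines within times (8000 arrangements, two-sided). Without any 1 library the ratio was 1.29 to 2.0 (exact binomial p = 0.0163 to 0.404), so its side of the threshold rests on single libraries. Bak1 fell below the filter and was not among the genes tested. Directions below are therefore those of the libraries labelled KD and NC.

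Every difference below is a log2 difference, KD-labelled minus NC-labelled, ± SE, from 9 libraries in each line, with the adjusted p of edgeR's quasi-likelihood test (Benjamini-Hochberg over 15996 genes). The SE was worked back from that test, as the size of the difference over the square root of its F statistic. The test called 1592 genes, 9.95% of those tested, of which 659 (4.12%) were higher and 933 (5.83%) lower in the KD-labelled line. Of these, 1564 had the same sign at each time, 9.78% of the genes tested, with 648 (4.05%) higher and 916 (5.73%) lower. The other 28 called genes had the opposite sign, or no value, at a time; the lowest adjusted p among them (edgeR) were those of Vnn3 (-3.59 ± 0.58, 0 counts in both lines at control), Hao1 (1.01 ± 0.21) and Ptpn14 (-1.11 ± 0.24). Differences were mostly small. The median was 0.57 among held genes that were higher, -0.65 among those that were lower and -0.005 over all genes tested, and 731 held genes differed by less than 1.5-fold. At least 2-fold differences were found for 285 held genes, 91 higher and 194 lower.

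The libraries themselves separated for fewer genes. At each of the 3 times, the 3 KD-labelled and 3 NC-labelled libraries did not overlap, in the same direction, for 439 genes (2.74% of those tested), of which 431 were held, 162 higher and 269 lower. For 97 genes (0.606%), 37 higher and 60 lower, all 9 KD-labelled libraries lay on 1 side of all 9 NC-labelled libraries whatever the time. Whether the line difference itself varied over the 3 times was also tested (line by time interaction, edgeR). At an unadjusted p below 0.05 the test gave 794 genes, about as many as that threshold passes when no difference varies. After adjustment it called 10 genes (0.0625% of those tested), of which 6 were held. That count depends on the fit: it was 71 with DESeq2, 66 with no filter on low counts and 415 with the replicate numbers as a block. The smallest held difference was 0.24 in size. At the threshold of edgeR's test, Gm14023 lay just inside (-0.81 ± 0.26, edgeR adjusted p = 0.04997) and Zfp407 just outside (0.24 ± 0.08, edgeR adjusted p = 0.05008). On the deposited TPM scale, limma on log2(TPM + 1) held 1086 genes, 735 higher and 351 lower, so that 67.7% were higher, against 41.4% in the count fit. The median of all genes on that scale was 0.086, and the largest gene took 36.2 to 56.1% of the TPM of a library. All 1394 held genes that entered the TPM fit kept their direction there, also relative to that median, and 770 were held in both.

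**Figure D1:**
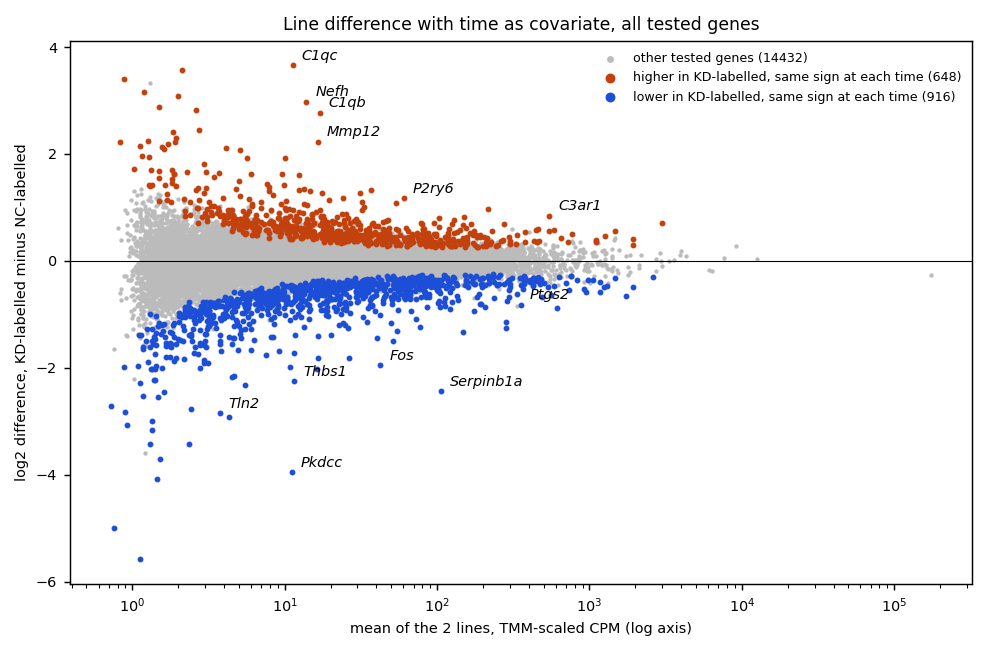
Line difference of every tested gene (vertical axis, log2, KD-labelled minus NC-labelled) against its mean level (horizontal axis, TMM-scaled CPM, log axis), with the 648 held genes that were higher in orange, the 916 that were lower in blue and other tested genes in grey. The named genes lie at the edges of the cloud, C1qc at 3.66 and Pkdcc at -3.95.

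The 2 C1q subunit genes that were held had some of the largest differences. C1qc and C1qb encode the C and B chains of C1q and lie next to each other on mouse chromosome 4. C1qc had 56.6, 47.9 and 46.8 CPM (read counts relative to library size, TMM-scaled) in the KD-labelled libraries at control, 11.9, 10.2 and 10.7 CPM at 12 h and 1.93, 2.3 and 1.67 CPM at 24 h. NC-labelled libraries had 4.8, 1.32 and 3.06 CPM of C1qc at control, 0.675, 1.44 and 1.39 CPM at 12 h and 0.507, 0.377 and 0 CPM at 24 h. The KD-labelled libraries were higher at each time, while both lines went down over the treatment, so that KD-labelled cells at 24 h overlapped NC-labelled cells at control. The difference was 3.66 ± 0.25 (edgeR, adjusted p = 2.36e-10), and 4.07, 3.17 and 2.74 at control, 12 h and 24 h.

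C1qb followed the same course, with 73, 42.8 and 87.4 CPM in the KD-labelled libraries at control, 22.2, 13.9 and 18.5 CPM at 12 h and 3.68, 4.81 and 5.72 CPM at 24 h. The NC-labelled libraries had 8.35, 5.61 and 6.13 CPM at control, 3.38, 1.26 and 4.95 CPM at 12 h and 1.01, 0.941 and 2.03 CPM at 24 h. The lines did not overlap at any time, and the difference was 2.77 ± 0.24 (edgeR, adjusted p = 4.88e-08). C1qa, the gene of the A chain, passed the test (3.32 ± 0.72, edgeR adjusted p = 0.00442) but did not count as held. It had 47, 39 and 25 counts in the KD-labelled libraries at control, against 0, 2 and 2 counts in the NC-labelled libraries, and it had 0 counts in all 6 libraries at 24 h. No sign could be given at that time.

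The stretches before the start of these 2 genes are shown because the genes are neighbours that moved together, beside that of Mmp12, another of the 4 largest differences that were higher. The stretch before Nefh, also among those 4, is not shown. The stretches shown are RefSeq sequences on GRCm38.p6, 5′ to 3′ on the gene's strand. Each runs from 250 bases before the RefSeq start up to that start, or up to the GENCODE M21 start where that lies earlier, which leaves 99 bases for C1qc. The C1qc stretch is chr4:136893066-136893164 (minus strand), that of C1qb chr4:136886201-136886450 (minus strand) and that of Mmp12 chr9:7344147-7344380 (plus strand). Capitals mark GAGGAAGT, a motif bound by the macrophage factor PU.1, searched on both strands, so that its reverse complement counts as a match.
C1qc: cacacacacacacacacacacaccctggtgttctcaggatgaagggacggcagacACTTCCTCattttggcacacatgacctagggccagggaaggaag
C1qb: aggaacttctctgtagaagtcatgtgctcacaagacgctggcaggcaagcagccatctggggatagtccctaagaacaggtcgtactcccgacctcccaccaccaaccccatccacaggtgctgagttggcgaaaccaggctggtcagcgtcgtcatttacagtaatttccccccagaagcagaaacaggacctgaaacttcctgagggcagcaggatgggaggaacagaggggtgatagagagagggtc
Mmp12: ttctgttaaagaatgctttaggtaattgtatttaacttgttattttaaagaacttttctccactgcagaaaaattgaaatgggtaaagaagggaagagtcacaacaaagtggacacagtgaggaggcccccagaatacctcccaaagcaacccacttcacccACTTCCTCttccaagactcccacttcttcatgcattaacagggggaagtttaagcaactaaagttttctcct
The motif was found once each before C1qc and Mmp12, and those letters were not in the C1qb window. Of all 32851 promoter windows of 250 bases in the RefSeq table, 2.44% held it, and these windows are longer than the 99 bases of C1qc. Of the 3 held members of the microglia and macrophage identity list (below) with a promoter in that table, C1qc alone held it. A match describes the letters and shows no binding.

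The microglia and macrophage identity list had 23 tested members, of which 6 were held higher and 0 lower, against 4.05% and 5.73% of all genes, the shares to set beside every list count below, and 20 of the 23 were above 0 (median 0.26). Beside C1qc and C1qb, the held members included Tmem119, a surface protein of microglia, and the transcription factor genes Runx1 and Spi1. Tmem119 had 8.99 to 30.5 CPM in the KD-labelled libraries (median 20.1) and 3.47 to 11.5 CPM in the NC-labelled libraries (median 6.47). It was higher by 1.34 ± 0.19 (edgeR, adjusted p = 2.37e-05), with 1.27, 1.28 and 1.45 at the 3 times. For none of Tmem119, C1qc and C1qb was the variation of the difference over the times called (edgeR interaction adjusted p = 0.9998, 0.9998 and 0.9614). Runx1 was higher by 0.58 ± 0.09 and Spi1, the gene of PU.1, by 0.38 ± 0.11 (edgeR, adjusted p = 9.87e-05 and 0.034). Other identity genes did not pass, among them Csf1r (0.26 ± 0.16), Cx3cr1 (0.30 ± 0.32), Itgam (0.37 ± 0.18) and Trem2 (0.24 ± 0.11; edgeR, adjusted p = 0.177 to 0.634). The P2ry12 gene, a receptor of resting microglia, had 8 counts in all and was not tested, and Sall1 had none. Summed over the 30 genes of the list, the level was 2370 to 3670 CPM in KD-labelled libraries and 1990 to 2900 CPM in NC-labelled libraries, so macrophage genes were well expressed in both lines. In bulk RNA, a smaller number of cells with a gene on and less RNA of it per cell cannot be told apart.

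**Figure D2:**
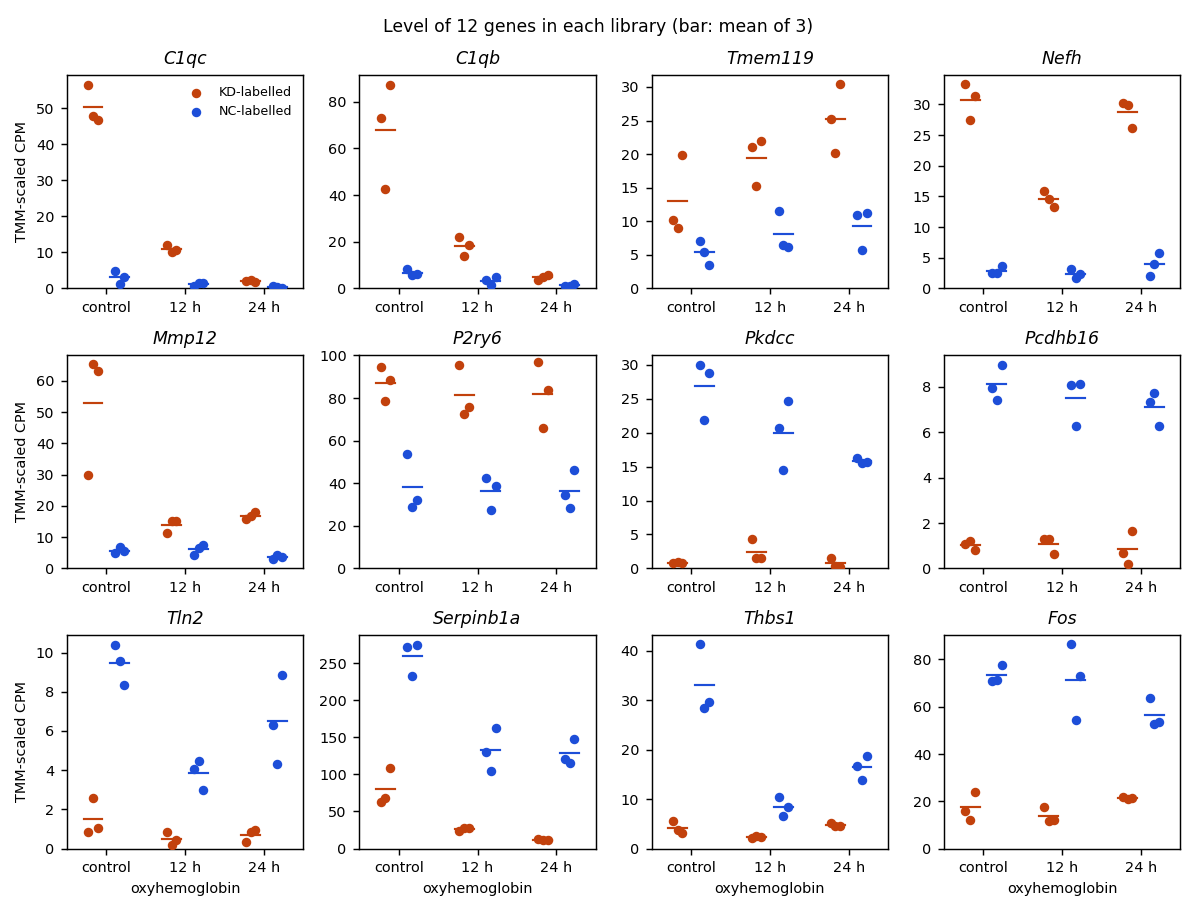
Level of 12 genes in each of the 18 libraries (vertical axes, TMM-scaled CPM from 0; horizontal axes, control, 12 h and 24 h), KD-labelled in orange left of NC-labelled in blue, with a bar at the mean of 3. In each panel the 3 KD-labelled libraries lie apart from the 3 NC-labelled ones at each time, while C1qc and C1qb also go down over the treatment in both lines.

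The receptors of chemoattractants and nucleotides split between the lines. P2ry6, which binds UDP and is known for microglial phagocytosis, had 65.9 to 96.8 CPM in KD-labelled libraries (median 83.6) and 27.3 to 53.6 CPM in NC-labelled libraries (median 34.7). It was higher by 1.18 ± 0.13 (edgeR, adjusted p = 7.5e-07), by 1.19, 1.17 and 1.17 at the 3 times, and the 9 libraries of each line did not overlap. C3ar1, the receptor of complement C3a, was higher by 0.85 ± 0.09 and Cxcr4, the receptor of Cxcl12, by 0.86 ± 0.22 (edgeR, adjusted p = 7.63e-07 and 0.0108). The scavenger receptor gene Msr1 was higher by 0.97 ± 0.10 (edgeR, adjusted p = 2.89e-07), with 68.3, 84.6 and 69.5 CPM in the KD-labelled controls and 27.1, 35.6 and 32.1 CPM in the NC-labelled controls. At 12 h Msr1 had 434, 489 and 497 CPM in the KD-labelled libraries and 204, 222 and 236 CPM in the NC-labelled libraries. The lines were apart at both times, and both were at a higher level at 12 h than at control.

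Lower in the KD-labelled line was the chemokine receptor gene Ccr1 on chromosome 9 (-1.32 ± 0.25; edgeR, adjusted p = 0.00232). Ccr1 had 24.5, 22.9 and 30.4 CPM in the KD-labelled controls and 132, 127 and 181 CPM in the NC-labelled controls. Its libraries overlapped at 24 h, with 150, 114 and 178 CPM in the KD-labelled and 175, 167 and 337 CPM in the NC-labelled line. Of the 23 tested chemoattractant and cytokine receptors, 3 were held higher and 3 lower (median 0.07). Leaving out NC-labelled library 2 at 24 h left 1 of the 3 higher.

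Genes known from neurons stood among the largest differences. Nefh, the heavy neurofilament subunit, had 33.3, 27.4 and 31.4 CPM in the KD-labelled controls, 15.8, 14.6 and 13.2 CPM at 12 h and 30.3, 29.9 and 26.2 CPM at 24 h. The NC-labelled libraries had 1.62 to 5.71 CPM (median 2.5), so all 9 KD-labelled libraries lay above them. Its difference was 2.97 ± 0.17, with the lowest adjusted p of the table (1.55e-11, edgeR). Tubb3, the neuronal tubulin, was higher by 2.11 ± 0.28 (3.14 to 10.6 CPM in KD-labelled and 0.719 to 3.06 CPM in NC-labelled libraries). L1cam, an adhesion molecule of axons, was higher by 1.93 ± 0.19 (6.48 to 13 CPM in KD-labelled and 1.48 to 3.23 CPM in NC-labelled libraries; edgeR, adjusted p = 1.15e-05 for Tubb3 and 1.08e-07 for L1cam), and the 9 libraries of each line did not overlap for either gene.

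Most other neuronal markers were at or near 0, and Gad1 was not higher in the KD-labelled line. Of the 11 genes of the neuron list, Rbfox3, Snap25, Syt1, Nefl, Nefm and Stmn2 had 0 counts in all 18 libraries, and Map2 and Slc17a7 had 1 count each. Gad1 had 144 counts over the KD-labelled and 162 counts over the NC-labelled libraries, against 300 and 68 counts of Tubb3. The summed neuron list was at 4.86 to 13.9 CPM in KD-labelled libraries and 2.16 to 11.1 CPM in NC-labelled libraries, most of it Tubb3 and Gad1. The defining light and medium neurofilament subunits that pair with Nefh in neurons were thus at 0 in both lines. Erythroid markers were at 10.1 to 20.3 CPM in KD-labelled and 10.2 to 17.1 CPM in NC-labelled libraries, with the 4 globin genes of the list and Klf1 at 0. The lymphocyte, granulocyte and mast cell list was at most 6.28 CPM in KD-labelled and 5.15 CPM in NC-labelled libraries. The astrocyte, oligodendrocyte, and fibroblast and endothelial lists had 2, 1 and 4 tested members, of which 1, 0 and 1 were held higher, namely Aldoc (0.57 ± 0.17) and Vwf (0.40 ± 0.11; edgeR, adjusted p = 0.0304 and 0.0273). Aldoc lost its call in 4 of the 18 fits that each left out 1 library, and Vwf in 1. The astrocyte and oligodendrocyte lists summed to at most 19.1 and 11.1 CPM in a library. The fibroblast and endothelial list was at 299 to 506 CPM in KD-labelled and 293 to 385 CPM in NC-labelled libraries. Most of that was Flt1, with 15966 and 14307 counts, while Col1a2, Col3a1, Dcn, Lum and Pdgfrb were at 0.

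Of 12 tested matrix proteases and inhibitors, 4 were held higher in the KD-labelled line (33.3%, against 4.05% of all genes) and 0 lower (median 0.22). Mmp12, the macrophage elastase, had 29.9, 65.3 and 63.2 CPM in the KD-labelled controls, 11.4, 15.3 and 15.1 CPM at 12 h and 15.8, 16.9 and 18.1 CPM at 24 h, above all NC-labelled libraries, which had 3.04 to 7.53 CPM (median 4.8). The difference was 2.23 ± 0.24 (edgeR, adjusted p = 1.6e-06). The neighbouring Mmp8, a collagenase, was higher by 1.49 ± 0.25, the cysteine protease Ctsk by 0.59 ± 0.10 and the urokinase receptor Plaur by 0.43 ± 0.11 (edgeR, adjusted p = 0.000215, 0.000438 and 0.0131). Mmp12 and Mmp8 lie near the start of chromosome 9. Most genes of that chromosome were lower in the KD-labelled line, but its first 89 tested genes by position had a median of -0.006.

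Among adhesion and matrix genes, Thbs1, which encodes the secreted glycoprotein thrombospondin-1, was lower by 2.24 on the log2 scale (-2.24 ± 0.19; edgeR, adjusted p = 1.17e-08). It had 5.55, 3.81 and 3.12 CPM in the KD-labelled controls, 2.16, 2.59 and 2.31 CPM at 12 h and 5.25, 4.6 and 4.53 CPM at 24 h. NC-labelled libraries had 41.3, 28.4 and 29.6 CPM at control, 10.4, 6.65 and 8.32 CPM at 12 h and 16.7, 13.9 and 18.8 CPM at 24 h, and every one of them lay above the KD-labelled libraries. Cd44, the hyaluronan receptor, was higher by 0.70 ± 0.11 and Lamc1, a laminin chain, lower (-0.44 ± 0.11; edgeR, adjusted p = 1e-04 and 0.0123). Itgb3, an integrin chain, was higher by 0.51 ± 0.14 (edgeR, adjusted p = 0.0251, and 0.0551 without KD-labelled library 1 at 12 h).

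The largest held difference with a mean of at least 5 CPM in the higher line was that of Pkdcc, a secreted tyrosine kinase. Pkdcc had 0.854, 0.915 and 0.832 CPM in the KD-labelled controls, 4.32, 1.48 and 1.47 CPM at 12 h and 1.58, 0.418 and 0.238 CPM at 24 h. The NC-labelled libraries had 30, 21.9 and 28.8 CPM at control, 20.7, 14.5 and 24.6 CPM at 12 h and 16.2, 15.6 and 15.7 CPM at 24 h. All 9 KD-labelled libraries were below all 9 NC-labelled ones, and the difference was -3.95 ± 0.27 (edgeR, adjusted p = 2.36e-10).

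Serpinb1a, an intracellular inhibitor of neutrophil serine proteases, was the most abundant gene among the 15 largest lower differences. It had 63.2, 68.5 and 108 CPM in the KD-labelled controls, 23.5, 27.7 and 28 CPM at 12 h and 13, 11.1 and 11 CPM at 24 h. The NC-labelled libraries had 272, 233 and 275 CPM at control, 130, 105 and 163 CPM at 12 h and 121, 116 and 148 CPM at 24 h. Its difference of -2.43 ± 0.20 (edgeR, adjusted p = 7.71e-08) grew over the treatment, from -1.70 at control to -2.33 at 12 h and -3.45 at 24 h.

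Tln2, the cytoskeletal linker talin-2, had 0.185 to 2.59 CPM in KD-labelled libraries (median 0.854) and 2.97 to 10.4 CPM in NC-labelled libraries (median 6.33), which did not overlap (-2.85 ± 0.27; edgeR, adjusted p = 7.71e-08). Zbtb46, a zinc-finger factor of dendritic cells and endothelium, had 3.1 to 5.92 CPM in KD-labelled and 12.9 to 22.6 CPM in NC-labelled libraries (-1.98 ± 0.16; edgeR, adjusted p = 4.96e-09). Itih5, a hyaluronan-binding matrix protein gene, was at -2.33 ± 0.24, Ankdd1a at -1.73 ± 0.18, the angiopoietin-like gene Angptl6 at -1.82 ± 0.21 and Cox6a2, the muscle form of a cytochrome oxidase subunit, at -1.67 ± 0.24 (edgeR, adjusted p at most 3.21e-05 for the 4). Among the 15 largest higher differences were also Cyp11a1, the first enzyme of steroid hormone synthesis (2.07 ± 0.28), the brain creatine kinase Ckb (1.62 ± 0.22), the dynein adaptor gene Bicdl1 (1.62 ± 0.21), the neutral sphingomyelinase Smpd3 (1.61 ± 0.17), Slfn5 (1.56 ± 0.27) and Asb2 (1.42 ± 0.17; edgeR, adjusted p at most 0.000322 for the 6).

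**Figure D3:**
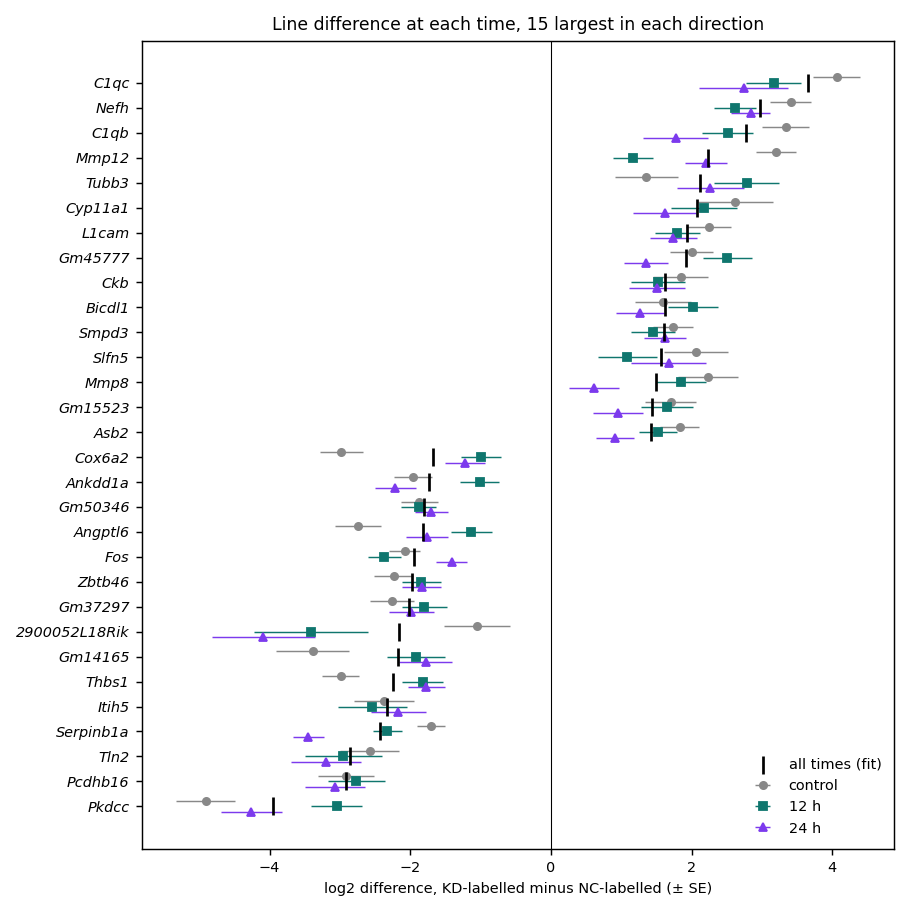
Line difference at control (grey circles), 12 h (green squares) and 24 h (purple triangles), each ± SE, and over all times (black bar) for the 15 largest held differences in each direction (horizontal axis, log2, KD-labelled minus NC-labelled). All 30 genes keep 1 side of 0, as their choice requires. Serpinb1a runs from -1.70 at control to -3.45 at 24 h.

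Clustered protocadherins, adhesion proteins that give neurons distinct surfaces, were lower in a run of neighbouring genes on chromosome 18. Of 5 tested genes of the protocadherin list, 3 were held lower, Pcdhb19 (-3.69 ± 0.41), Pcdhb17 (-2.77 ± 0.32) and Pcdhb20 (-3.06 ± 0.58; edgeR, adjusted p = 7.63e-07, 1.69e-06 and 0.000797). Pcdhb16 stood among the 15 largest lower differences, with 0.209 to 1.67 CPM in KD-labelled and 6.26 to 8.98 CPM in NC-labelled libraries (-2.91 ± 0.23; edgeR, adjusted p = 3.83e-09), and at -2.92, -2.77 and -3.07 it lay in a narrow range at the 3 times. With Pcdhb18 they form 5 consecutive tested genes, Pcdhb16 to Pcdhb20, held lower by -3.69 to -2.44. Pcdhga4, Pcdhga5, Pcdhga6 and Pcdhga8 were another 4 in a row at -2.22 to -1.41. Genes of this family resemble each other in sequence, and Pcdhga transcripts share their last exons, so the split of reads between members is uncertain. The means of Pcdhb17 to Pcdhb20 lay below 5 CPM in both lines. With the filter of the TPM fit 0 protocadherins of the list were held, and with no filter 3 were held lower.

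The immediate early gene Fos, a subunit of AP-1, was lower by 1.95 on the log2 scale (-1.95 ± 0.15; edgeR, adjusted p = 2.23e-09). It had 16, 12.2 and 24.1 CPM in the KD-labelled controls, 17.7, 11.6 and 12.2 CPM at 12 h and 21.7, 20.9 and 21.2 CPM at 24 h. In the NC-labelled libraries it had 70.9, 71.4 and 77.8 CPM at control, 86.7, 54.4 and 73.1 CPM at 12 h and 63.6, 52.9 and 53.6 CPM at 24 h. The lowest NC-labelled library was more than 2-fold above the highest KD-labelled one. Nr4a1, an orphan nuclear receptor induced by many stimuli, was lower by 1.83 on the log2 scale (-1.83 ± 0.31) and Ier3 was at -0.53 ± 0.14, while Dusp6, a phosphatase of ERK, was higher by 0.60 ± 0.18 (edgeR, adjusted p = 0.000287, 0.0135 and 0.0316). Of 18 tested immediate early genes, 1 was held higher and 3 lower (median -0.08). Without NC-labelled library 2 at 24 h, 5 were lower. The other AP-1 gene Jun (0.24 ± 0.12) and the stress factor gene Atf3 (-0.33 ± 0.30) did not pass (edgeR, adjusted p = 0.222 and 0.573). Dusp6 lost its call in 6 of the 18 fits that each left out 1 library.

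Genes of the ATF4 stress response leaned to 1 side. ATF4 is translated when the integrated stress response slows protein synthesis, and it raises amino acid transporters, tRNA synthetases and the feedback genes Ddit3, Trib3, Chac1 and Ppp1r15a. Of 22 tested members, 8 were held lower in the KD-labelled line, 0 higher, and 21 of 22 lay below 0 (median -0.31). Slc7a5, an amino acid transporter, had 301, 229 and 301 CPM in the KD-labelled controls, 617, 432 and 540 CPM at 12 h and 550, 456 and 551 CPM at 24 h. NC-labelled libraries had 870, 610 and 756 CPM at control, 962, 652 and 928 CPM at 12 h and 897, 627 and 717 CPM at 24 h. Library 2 of each group was the lowest, and within each time the lines did not overlap. The difference of Slc7a5 was -0.88 ± 0.13, that of Ddit4, an inhibitor of mTOR, -0.93 ± 0.13, that of Ddit3, the factor CHOP, -0.66 ± 0.11 and that of Ppp1r15a, which restarts translation, -1.28 ± 0.24 (edgeR, adjusted p = 7.41e-05, 2.63e-05, 0.000218 and 0.000788).

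The remaining 4 held members were Nars (-0.49 ± 0.10), Chac1 (-0.80 ± 0.20), Trib3 (-1.14 ± 0.30) and Gars (-0.37 ± 0.12; edgeR, adjusted p = 0.00229, 0.0144, 0.0251 and 0.0416). Trib3 was at -2.62 at control and at -0.30 and -0.62 at 12 h and 24 h. Without the control libraries, 4 members of the list were lower, and in fits without 1 library, 6 to 9. Atf4 itself did not pass (-0.22 ± 0.26; edgeR, adjusted p = 0.678). Of 15 tested genes of serine synthesis and folate one-carbon metabolism, a set that ATF4 also raises, 4 were held lower. They were Mtr, methionine synthase (-0.55 ± 0.08), Mthfd2 (-0.49 ± 0.14), Aldh1l2 (-0.72 ± 0.20) and Psph (-0.51 ± 0.15, edgeR adjusted p = 5.78e-05, 0.021, 0.0228 and 0.032 in that order). Aldh1l2 was at -1.85 ± 0.18 at control, but at -0.29 ± 0.17 and -0.08 ± 0.17 at 12 h and 24 h. Only Mtr of these 4 kept its call without any 1 library, and Mtr lies on chromosome 13; without KD-labelled library 2 or 3 at control 2 members of the list were lower, and without all control libraries, or on the TPM scale, 1.

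The stretch before Chac1 is shown because that gene holds TGATGNAA, the C/EBP-ATF composite motif through which ATF4 binds, in capitals on either strand (RefSeq, GRCm38.p6, chr2:119350992-119351228, plus strand, 237 bases).
Chac1: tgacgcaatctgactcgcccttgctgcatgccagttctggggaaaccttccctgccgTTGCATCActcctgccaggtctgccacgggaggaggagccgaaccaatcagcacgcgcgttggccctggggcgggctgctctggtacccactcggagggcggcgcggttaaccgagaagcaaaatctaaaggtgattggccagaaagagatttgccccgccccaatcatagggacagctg
Of the 6 held members of the ATF4 list with a promoter in the RefSeq table, Chac1 and Gars held the motif in their window, against 3.45% of all 32851 windows. The window ends at the start of the gene, and matches inside the gene were not sought.

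Inflammatory mediators, the secreted cytokines and the enzymes of inflammation, leaned to the lower side in the KD-labelled line. Of 19 tested members, 9 were held lower and 0 higher, and 17 of 19 lay below 0 (median -0.49). Ptgs2, the inducible cyclooxygenase, had 30.5, 34.9 and 26.8 CPM in the KD-labelled controls, 452, 485 and 480 CPM at 12 h and 274, 319 and 293 CPM at 24 h. The NC-labelled libraries had 52.4, 78.8 and 63.5 CPM at control, 722, 803 and 907 CPM at 12 h and 399, 433 and 536 CPM at 24 h. The lines were apart at each time, at -1.08, -0.78 and -0.63, and the difference was -0.82 ± 0.10 (edgeR, adjusted p = 3.23e-06).

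Il6 was near its detection limit in the controls, with 0.213, 0.152 and 0 CPM in the KD-labelled and 0.209, 1.32 and 1.23 CPM in the NC-labelled libraries. At 12 h it had 18.8, 15.7 and 22.9 CPM in the KD-labelled and 39.8, 37.7 and 46.8 CPM in the NC-labelled libraries, and at 24 h 9.28, 7.32 and 10.5 CPM in the KD-labelled and 12.2, 16.8 and 19.3 CPM in the NC-labelled libraries. Treated libraries of the lines did not overlap, and the difference was -1.08 ± 0.19 (edgeR, adjusted p = 0.000385). Il1a was at -0.80 ± 0.17 and the chemokine gene Ccl7 at -0.49 ± 0.13 (edgeR, adjusted p = 0.00283 and 0.0156).

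The other 5 were Il23a (-1.02 ± 0.31), Cxcl10 (-0.93 ± 0.28), Csf3 (-0.58 ± 0.18), the nitric oxide synthase Nos2 (-0.50 ± 0.15) and Csf1 (-0.44 ± 0.12; edgeR, adjusted p = 0.0221 to 0.0386). The count was less firm than that of the genes above. It was 5 without KD-labelled library 2 at 12 h, KD-labelled library 1 at 24 h or NC-labelled library 3 at 12 h, and it was 6, 3 and 5 without the control, 12 h and 24 h libraries. On the TPM scale 2 were lower, Il6 and Ptgs2, and 1 was higher, Tnfsf9 (0.37, limma adjusted p = 0.0111). Members that did not pass included Tnf (-0.16 ± 0.19), Ccl2 (-0.06 ± 0.15) and Il1b (-0.55 ± 0.18; edgeR, adjusted p = 0.675, 0.852 and 0.0577). Of 17 tested genes of the NF-kB pathway, which drives many of these mediators, Sod2 alone was held (-0.33 ± 0.10, edgeR adjusted p = 0.0298, lost in 8 of 18 fits without 1 library; median -0.22).

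Receptors and adaptors upstream of these mediators went both ways. Of 19 tested Toll-like receptor genes and adaptors, Tlr7 (0.95 ± 0.22) and Tlr13 (0.51 ± 0.11), both sensors of RNA, were held higher, and the adaptor Ticam2 (-0.70 ± 0.10) and the kinase Irak2 (-0.51 ± 0.15) lower (edgeR, adjusted p = 0.0049, 0.00376, 3.21e-05 and 0.0246). Irak2 lost its call in 5 of the 18 fits without 1 library. Of 27 tested interferon response genes, the antiviral Oasl2 (0.65 ± 0.13) and Ifit1 (0.75 ± 0.15) were held higher and 0 lower (edgeR, adjusted p = 0.00137 and 0.00192; median 0.06). That share, 7.41%, is near the 9.78% of all genes. Without the control libraries 0 were higher and 1 was lower. The interferon response gene Isg15 was called lower (-0.58 ± 0.15, edgeR adjusted p = 0.0157) without the same sign at each time. It was at 0.14, -1.16 and -0.67 at control, 12 h and 24 h. In antigen presentation, B2m (0.47 ± 0.10) and the class I gene H2-Q4 (0.66 ± 0.17) were held higher and Cd74, the invariant chain of class II, lower (-0.94 ± 0.27), of 15 tested (edgeR, adjusted p = 0.00325, 0.0134 and 0.0238). The median of that list was 0.40, and without the control libraries 0 were held. H2-Q4, like Nlrp1b below, has close paralogs, so its reads may be shared. Cd74 was not called without KD-labelled library 2 at control or NC-labelled library 3 at 24 h.

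The lists closest to the study's title are those of cell death. Their held shares were 23.1% in the Bcl2 family, 16.7% among inflammasome genes and 0 in necroptosis and apoptosis execution, against 9.78% of all genes, and each list is small. Of 13 tested Bcl2 family members, 3 were held lower and 0 higher (median -0.24): Bcl2l11, the pro-death BH3-only protein Bim (-0.50 ± 0.09), and the pro-survival genes Bcl2a1d (-0.68 ± 0.13) and Mcl1 (-0.35 ± 0.09; edgeR, adjusted p = 0.000559, 0.000807 and 0.0105). Bcl2l11 had 79.3 to 121 CPM in KD-labelled libraries (median 106) and 131 to 161 CPM in NC-labelled libraries (median 147), with no overlap. Bcl2a1d belongs to a family of near-identical copies and lies on chromosome 9. The partner of Bak1, Bax, was at 0.22 ± 0.16 and Bcl2l1 at 0.13 ± 0.10 (edgeR, adjusted p = 0.424 and 0.486). Of 18 tested necroptosis genes and 13 apoptosis executors, 0 were held, with medians of 0.04 and -0.06. Ripk1 was at 0.12 ± 0.10, Mlkl, the pore former of necroptosis, at 0.10 ± 0.26 and Casp8 at 0.22 ± 0.19 (edgeR, adjusted p = 0.499, 0.859 and 0.556), while Ripk3 had 5 counts in all and was not tested. Of 12 inflammasome genes, the adaptor Pycard (0.49 ± 0.11) and the sensor Nlrp1b (1.42 ± 0.38) were held higher (edgeR, adjusted p = 0.00553 and 0.0167; 0.054 for Nlrp1b without KD-labelled library 2 at control).

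**Figure D4:**
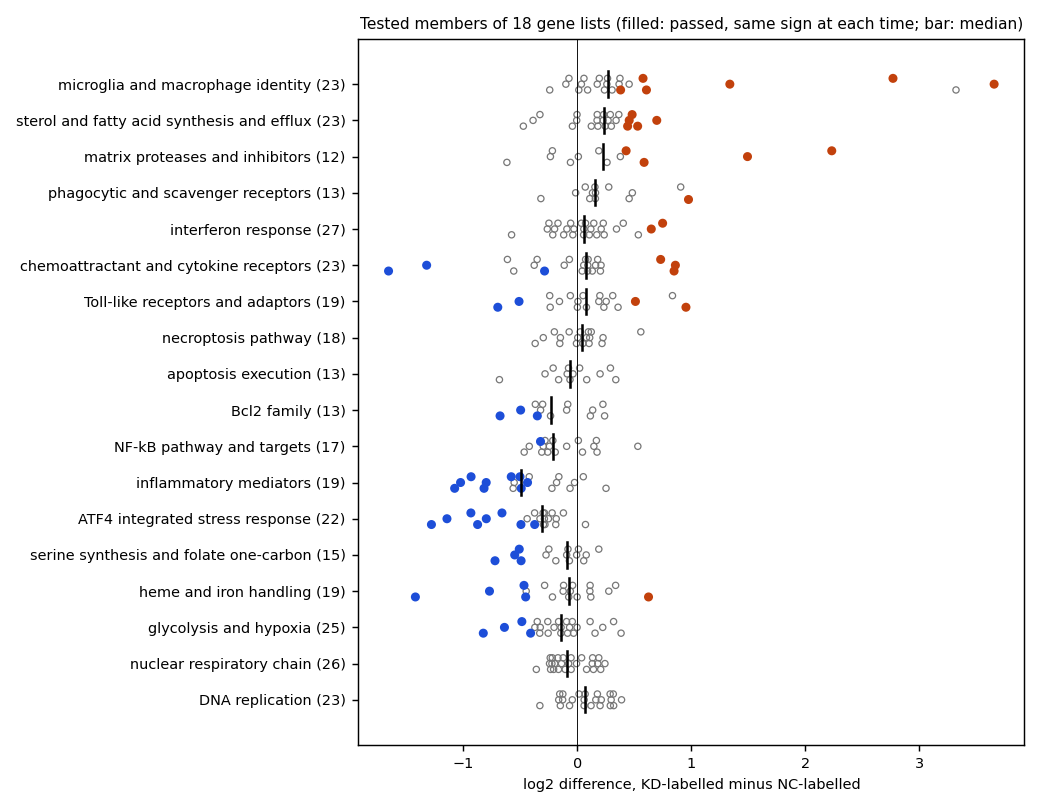
Line difference (horizontal axis, log2, KD-labelled minus NC-labelled) of every tested member of 18 gene lists, with the number tested in brackets. Filled points are held members, orange where higher and blue where lower, open points are other tested members, and the black bar is the list's median, which is 0.26 for microglia and macrophage identity and -0.49 for inflammatory mediators.

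In iron handling, Slc40a1, the iron exporter ferroportin, was lower (-0.77 ± 0.10) and Tfrc, the transferrin receptor that imports iron, higher (0.62 ± 0.12; edgeR, adjusted p = 7.57e-06 and 0.00134). Slc40a1 had 74.3 to 111 CPM in KD-labelled libraries (median 94.8) and 111 to 192 CPM in NC-labelled libraries (median 162), and its highest KD-labelled library was level with its lowest NC-labelled one. Tfrc lies on chromosome 16, where most genes were higher. Hp, haptoglobin, which binds free hemoglobin, was lower (-1.42 ± 0.19), as were Ftl1, ferritin light chain (-0.45 ± 0.14), and Hmox1, heme oxygenase 1 (-0.47 ± 0.15; edgeR, adjusted p = 8.91e-06, 0.0326 and 0.0467). Ftl1 and Hmox1 lost their calls in 9 and 10 of the 18 fits without 1 library. In all, 1 of 19 tested genes of this list was held higher and 4 lower (median -0.08). Of 22 tested genes of the NRF2 response, 3 were held lower, Cat, Hmox1 and Gclc (median -0.03); Gclc lost its call in 13 of the 18 fits, and 0 members of the list were lower without the control or the 24 h libraries.

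Of 23 tested genes of sterol and fatty acid synthesis and efflux, 5 were held higher (21.7%, against 4.05% of all genes) and 0 lower, and 17 of 23 lay above 0 (median 0.23). The cholesterol exporter gene Abca1 was called lower (-0.39 ± 0.10, edgeR adjusted p = 0.00861) without the same sign at each time. They included the cholesterol synthesis enzymes Lss (0.70 ± 0.13), Msmo1 (0.53 ± 0.11) and Cyp51 (0.48 ± 0.11) and the regulator Insig1 (0.44 ± 0.11; edgeR, adjusted p = 0.000707, 0.0025, 0.00385 and 0.00873). Without the control libraries 3 were higher and 1 was lower, and without the 24 h libraries 3 were higher. Of 25 tested glycolysis and hypoxia genes, 4 were held lower, Egln3 (-0.49 ± 0.11), Eno1 (-0.64 ± 0.14), Pdk1 (-0.41 ± 0.09) and Vegfa (-0.82 ± 0.19; edgeR, adjusted p = 0.00309, 0.00323, 0.00397 and 0.00499), with 20 of 25 below 0 (median -0.14), and 0 were lower without the control libraries and 2 on the TPM scale. Eno1 lies near the end of chromosome 4.

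Nuclear respiratory chain subunits (26 tested) and replication genes (23 tested) had 0 held members, with medians of -0.09 and 0.07. All 9 tested mitochondrially encoded genes lay above 0, from 0.19 to 0.60, but 0 passed. Mitochondrial reads were 0.60 to 2.37% of a library's counts. In the ER stress list of 21 genes, Dnajc3 (0.28 ± 0.08) was higher and the sensors Ern1 (-0.64 ± 0.11) and Atf6 (-0.40 ± 0.08) lower (edgeR, adjusted p = 0.0279, 0.000358 and 0.00255). The mitochondrial chaperones Hspa9 (-0.39 ± 0.09) and Hspd1 (-0.36 ± 0.08) were the 2 held members, both lower, of 12 heat shock genes (edgeR, adjusted p = 0.0042 and 0.00529). Of 13 tested replication-dependent histone genes, 4 were held lower, H1f2, H1f4, H2bc4 and H2ac6 (-0.66 to -0.37), all on chromosome 13, as were the ribosomal protein genes Rpl4 and Rplp1 (-0.36 and -0.32), both on chromosome 9, of 25 tested. Rplp1 lost its call in 10 of the 18 fits without 1 library. Histone genes are multicopy, so their reads may be shared, and the histone count varied with the libraries used: 7 were lower without KD-labelled library 3 at control or NC-labelled library 2 at 24 h, and 0 without the 12 h or the 24 h libraries.

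The lists not yet named held few members. Of 16 disease-associated microglia genes, 3 were held lower, Ctsl, Csf1 and Gpnmb (median 0.08), and Gpnmb lost its call in 12 of the 18 fits without 1 library. Of 26 lysosome and autophagy genes 2 were held higher and 2 lower, of 23 mitosis genes 2 lower, of 14 p53 targets Plk2 alone, of 18 guidance genes Plxnc1 and Notch1 lower, and of 7 imprinted genes Airn and Kcnq1ot1 higher. Kcnq1ot1 lost its call in 8 of those 18 fits, and Lamp1, a lysosome gene held higher, in 11. The phagocytic and scavenger receptors (13 tested) had Msr1 alone, and the purinergic list (10 tested) had P2ry6 higher and Adora2b lower. The 1 tested oncogene of the transforming retrovirus was at 0.11 and was not called. On the TPM scale, which moved the median of all genes to 0.086, the medians of the apoptosis, iron, respiratory chain and NRF2 lists were 0.03, 0.04, 0.03 and 0.07. Relative to that median they were -0.06, -0.05, -0.05 and -0.01, below 0 as in the counts. The heat shock, ribosomal, mitosis, p53 and erythroid lists also came out above 0 on that scale, at 0.01, 0.01, 0.03, 0.01 and 0.04. Relative to the median of all genes they were -0.08, -0.08, -0.06, -0.08 and -0.05. For the 16 immediate early genes in the TPM fit the relative median was 0.04, and their median in the counts was 0.03.

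The line difference varied with position in the genome. The level of a chromosome was taken in each library as the median, over its tested genes, of log2 CPM centred on the mean of that time. On chromosome 9 (895 genes) it was -0.094 to -0.049 in the KD-labelled libraries and 0.066 to 0.126 in the NC-labelled libraries, a difference of -0.177. Its size depends on the genes used: with no filter on low counts the levels of chromosomes 9, 13 and 16 differed by -0.059, -0.053 and 0.058, in the same directions. The difference was -0.179 at control, -0.181 at 12 h and -0.170 at 24 h. Chromosome 13 (660 genes) was at -0.129 to -0.005 in the KD-labelled and 0.018 to 0.175 in the NC-labelled libraries (-0.184). Chromosome 16 (510 genes) was at 0.072 to 0.127 in the KD-labelled and -0.126 to -0.030 in the NC-labelled libraries (0.164). For these 3 chromosomes the 9 libraries of each line did not overlap. Each gave p = 0.00025 in the exact permutation test of the lines within times, the smallest p that its 8000 arrangements can give, and 0.00167 after Benjamini-Hochberg adjustment over 20 chromosomes. The other 17 chromosomes lay between -0.055 and 0.045, and of these chromosome 12 (-0.055) had an adjusted permutation p of 0.0388.

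**Figure D5:**
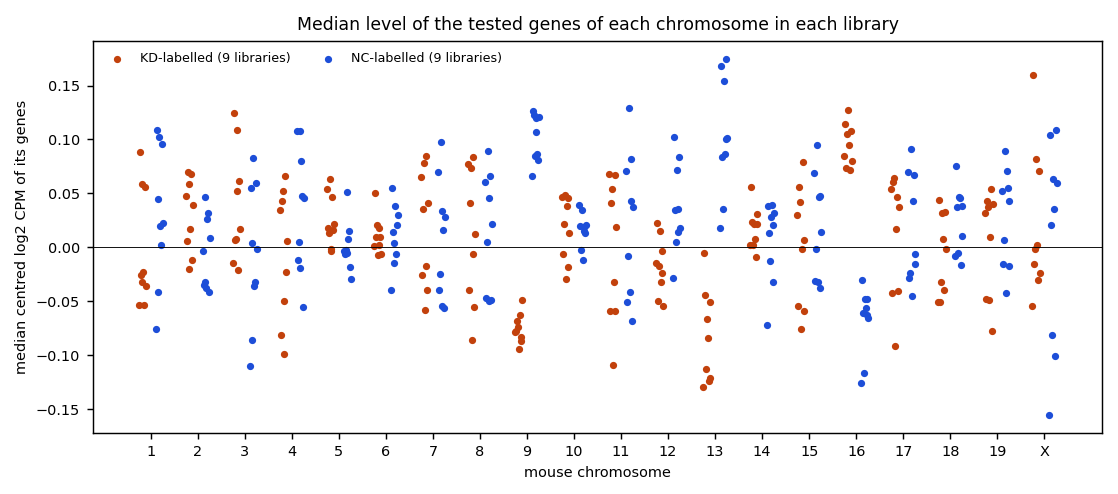
Median level of the tested genes of each mouse chromosome in each library (vertical axis, log2 CPM centred on the mean of each time), KD-labelled in orange left of NC-labelled in blue, 9 libraries each. The lines are apart on chromosomes 9 and 13, where the KD-labelled libraries are lower, and on chromosome 16, where they are higher.

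On chromosome 9, 73.0% of tested genes were lower in the KD-labelled line, and 12 were held higher and 117 lower. On chromosome 13, 72.6% were lower, with 6 held higher and 90 lower. On chromosome 16, 27.3% were lower, with 64 held higher and 13 lower. The 3 chromosomes carried 302 held genes, 19.3% of all held genes, against 12.9% of the genes tested. Away from them, 1262 of 13931 tested genes (9.06%) were held, 566 higher and 696 lower. Of the members above, Runx1 and Tfrc lie on chromosome 16, and Serpinb1a, Ctsl, Mtr and the histone genes on chromosome 13. Tln2, Ccr1, Angptl6, Ankdd1a and Bcl2a1d lie on chromosome 9 and were lower, as most genes there. Mmp12, Mmp8 and Cyp11a1 lie on the same chromosome and were higher. The shift was not even along chromosome 9. Its first 89 tested genes by position had a median of -0.006, and the next 90 had a median of -0.014. In each of these stretches 4 genes were held higher and 4 lower. The later stretches of 89 or 90 genes had medians of -0.273 to -0.143. Mmp12 and Mmp8 (starts at 7344381 and 7558456) lie near the unshifted end. Of the lower genes just named, Angptl6 (start 20873808) lies nearest to that end. Chromosome 13 was uneven too. Its stretches of 66 tested genes had medians of -0.307 to -0.009, with -0.009 in the first stretch. The second stretch was at -0.057, -0.768 and -0.18 at control, 12 h and 24 h. On chromosome 16 the stretches of 51 tested genes lay at 0.115 to 0.24. How far these chromosome levels account for the values of single genes was not tested.

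The last 87 tested genes of chromosome 4 by position (chr4:149715375-156255657, GRCm38) stood out within its chromosome. Of these 87 genes, 74 (85.1%) were below 0, with a median of -0.32, and 28 were held lower and 0 higher. They ranged from -1.58 to -0.33 and included Gpr157 (-1.43 ± 0.14), the mitochondrial nucleotide carrier Slc25a33 (-0.87 ± 0.10), the synapse-organizing matrix protein agrin (Agrn, -1.55 ± 0.29), the receptor gene Tnfrsf9 (-1.58 ± 0.39) and Park7 (-0.58 ± 0.13; edgeR, adjusted p = 2.73e-07 to 0.0105). These genes were chosen after their values were seen. C1qa, C1qb and C1qc lie outside that stretch. Other runs of at least 4 consecutive tested genes held in 1 direction included Tpm1, Tln2, Gm47047, Vps13c and Rora on chromosome 9 (-2.85 to -0.29), and Agap1, Gm37297, Gm28499 and 4933400F21Rik on chromosome 1 (-2.02 to -0.91). Hmga2 with 3 neighbours made a run of higher genes on chromosome 10 (0.61 to 0.88).

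Most held genes were protein coding, 72.1% of those higher and 76.6% of those lower, against 66.7% of all tested genes, while pseudogenes made up 6.94, 5.02 and 9.73%. Some noncoding genes among the named members lay close to coding ones. Gm15523, an antisense gene inside the span of Asb2, was higher by 1.43 ± 0.21, and Gm45777, a unitary pseudogene beyond the start of Asb2, by 1.92 ± 0.20, next to 1.42 ± 0.17 of Asb2 itself (edgeR, adjusted p = 4.59e-05, 2.89e-07 and 2.47e-06). Gm37297, inside the run with Agap1, was at -2.02 ± 0.18, Gm50346 at -1.81 ± 0.14 and A930007I19Rik at -1.25 ± 0.10 (edgeR, adjusted p at most 2.55e-08 for the 3). Gm14165, a processed pseudogene, was at -2.17 ± 0.26 and 2900052L18Rik at -2.15 ± 0.43 (edgeR, adjusted p = 2.75e-06 and 0.00214). No source used here says whether reads were counted by strand. Exons of some named genes overlap a gene on the other strand with more counts: 14.1% of the exon bases of Aldh1l2 with D10Wsu102e, 16.8% of Angptl6 with A230050P20Rik, 10.4% of Psph with Cct6a and 4.72% of Smpd3 with Prmt7. Reads in those stretches cannot be told apart without strand, and the values of these 4 genes are uncertain to that extent, as is that of Ticam2, which shares 14.5% of its exon bases with Tmed7 on the same strand.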

How the data were processed

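RNA-seq of 18 libraries was analysed. The deposited counts are whole-number reads per gene, and the deposited TPM are the authors' length-scaled values (TPM, transcripts relative to library total) beside them. The submitters' processing notes name bcl2fastq, HISAT2 2.2.0, featureCounts, DESeq2 and GRCm38, without their settings, and the authors' gene lengths came in the same table. Groups were taken from the sample labels.

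From the counts, edgeR 4.0.16 (R 4.3.3) fitted time plus line with TMM factors after filterByExpr (minimum count 10), by the quasi-likelihood test with Benjamini-Hochberg adjustment and a threshold of 0.05. A fit of 6 groups gave the differences at each time and the line by time interaction. The 15996 tested genes held 99.65% of the counts. Totals of 4361313 to 6008810 counts and a median biological coefficient of variation of 0.22 set the precision. Tested on simulated data for the line comparison over 15996 genes, the fit recovered 42% of 100 genes changed by 0.5 (log2) and 85% of 100 changed by 1, with 8 false calls. Intervals cover counting error only.

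DESeq2 1.42.0, limma 3.58.1 on log2(TPM + 1), other scalings and filters, a replicate block and left-out libraries were tried. Named genes were the 15 largest held differences in each direction with a mean of at least 5 CPM in the higher line and libraries apart at each time, the 10 lowest adjusted p, up to 4 members of each of 43 lists and 3 called genes without a steady sign. Other genes were named after their values were seen, to complete a count. The members and lists were chosen with earlier results of these data known. Positions are those of GENCODE M21 on GRCm38. Some items are not reported here.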

Additional observations from a re-analysis of the deposited data

Results flagged for a closer look

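For 6 held genes the line difference itself varied over the 3 times (edgeR's quasi-likelihood test of the interaction, Benjamini-Hochberg over 15996 genes). Aldh1l2, a mitochondrial folate enzyme, was at -1.85, -0.29 and -0.08 at control, 12 h and 24 h (log2, KD-labelled minus NC-labelled; edgeR interaction adjusted p = 0.00395). Trib3, a target of ATF4, was at -2.62, -0.30 and -0.62 (edgeR interaction adjusted p = 0.00455). Gpt2, which makes glutamate from alanine, was at -1.27, -0.26 and -0.32 (edgeR interaction adjusted p = 0.0428), and the protease inhibitor gene Spink5 at -2.41, -0.63 and -0.89 (edgeR interaction adjusted p = 0.0405). Serpinb1a went the other way, at -1.70, -2.33 and -3.45 (edgeR interaction adjusted p = 0.0355). AC147806.2 had 0 counts in the KD-labelled controls and 49 counts in the NC-labelled controls, at least 16.1-fold lower with 3 counts over the group as the floor, and it was at -0.73 and -0.83 at 12 h and 24 h (edgeR interaction adjusted p = 0.00395). Of the 6, 5 were furthest apart at control and Serpinb1a at 24 h.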

How the results depend on the processing

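No value of the 122 named genes turned its direction under any of 35 settings: of 4210 values 3848 kept their call and 362 lost it. Of the genes, 58 kept their call in every setting and 64 lost it in at least 1; 101 kept it in all 18 fits that left out 1 library. Held genes numbered 1585 with RLE factors, 1566 with upper-quartile factors, 1682 with no filter on low counts, 1499 with a filter of 5 CPM, 1937 with DESeq2 and 1086 with limma on log2(TPM + 1), of which 67.7% were higher. With no filter on TPM, 1046 were called and 1040 held. Without the control libraries 859 were called and 859 held, without the 12 h libraries 741 and 737, and without the 24 h libraries 669 and 669; fewer samples enter these fits. Genes with no overlap at each remaining time then numbered 864, 827 and 790, and 1270 without the libraries numbered 2; fewer libraries have to separate there. Interaction calls numbered 66 with no filter, 71 with DESeq2, 1, 4 and 2 without the control, 12 h and 24 h libraries, and 1 without the libraries numbered 2. The Bak1 ratio was 2.47 without the 12 h libraries (exact binomial p = 0.00742) and 2.22 without those numbered 2 (exact binomial p = 0.0123); the cause was not tested.

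Leaving out 1 library at a time gave 1326 to 1577 called, 1307 to 1545 held, 488 to 533 apart at each time, 4 to 12 interaction calls and a Bak1 ratio of 1.29 to 2.0. The chromosome levels ranged from -0.182 to -0.159 (chromosome 9), -0.196 to -0.161 (chromosome 13) and 0.155 to 0.188 (chromosome 16), and with no filter on low counts they were -0.059, -0.053 and 0.058. With the genes of those 3 chromosomes left out, chosen after seeing the data, 1206 genes were held.

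Libraries of the same number and time had correlated deviations of 0.07 to 0.444, with 7 of 9 pairs over 0.1 and 8 of 9 best with their own number. This is a hint from the data that a number marks something shared, which the labels do not state, and 2 of 9 pairs lay under 0.1, so no block was used above. With the replicate block, 3449 genes were called, 3257 held and 415 called for the interaction, and with a replicate block within time 3031 were called and 2908 held; among the named genes Mthfd2 and Aldh1l2 lost their calls under a block. Depth limits genes of few counts such as Bak1.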
